A study of Mus musculus with 45 samples.

Results

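The genes of MHC class I antigen presentation were followed through small intestinal tuft cell libraries of mice on a reference or a high fat diet. The 10 genes were chosen by name and found by their symbols: B2m, H2-K1, H2-D1, H2-Q7, H2-T23, H2-M3, Tap1, Tap2, Tapbp and Nlrc5. They are 10 of the 47729 genes in the count and TPM tables. All 10 were among the 14020 genes that passed the filter on low counts and were tested.

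Male C57BL/6J mice, 5 weeks old at arrival and kept at 30 °C, received 1 week of chow and then RFD (10% fat) or HFD (60% fat). The STF libraries came from mice fed for 9 weeks, 11 on RFD and 11 on HFD. The LTF libraries were taken as those of mice fed for 22 weeks, 11 on RFD and 12 on HFD, although the labels name 9 weeks for them too. Feeding time and set of libraries therefore cannot be told apart. The sort gate for tuft cells is given as EpCAM+CD45+Siglec-F+, although the paper also states that CD45 served to leave cells out. Whether cells with CD45 were kept is therefore not certain. Each library held the RNA of the sorted cells of 1 mouse, amplified with Smart-seq2. No transgene or deletion was used in any group. By the paper, only the 22-week groups had an oral glucose test and an insulin injection for a tolerance test, in their last weeks of feeding. Comparisons between the sets hold this difference too.

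MHC class I molecules show peptides from inside a cell to CD8 T cells. Each consists of a heavy chain encoded by an H2 gene and the invariant light chain β2-microglobulin, encoded by B2m. Tap1 and Tap2 encode the transporter that carries peptides into the endoplasmic reticulum, and Tapbp encodes tapasin, which holds the empty heavy chain at this transporter. Nlrc5 encodes a coactivator that is recruited to class I promoters, and interferons raise the transcription of many genes of the pathway. H2-K1 and H2-D1 encode the classical heavy chains, whereas H2-Q7 (Qa-2), H2-T23 (Qa-1) and H2-M3 (a chain that presents formylated peptides) are non-classical.

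Promoter stretches of 5 members are shown because these genes share the elements through which Nlrc5 and interferon are known to act. H2-M3, which did not pass the test below, is shown beside members that did. The stretches are from RefSeq on GRCm38.p6 and are read in the direction of the gene, 5′ to 3′. The positions are chr17:34000354-34000467 (minus strand) for H2-K1 and chr17:35439013-35439124 (plus strand) for H2-Q7. Those of H2-M3 and B2m are chr17:37270123-37270222 and chr2:122147538-122147643, both on the plus strand. Of H2-D1, where a GENCODE M21 exon covers the region, only chr17:35262993-35263022 (plus strand) is shown. Capitals mark the κB letters GGGATTCCC, the letters TTTCACTTC of an interferon-stimulated response element, and the X2 letters TGACG followed by the Y box letters ATTGG. In B2m they mark GAAACTGAA, the opposite strand of the response element core TTCNNTTTC, in place of TTTCACTTC.
H2-K1: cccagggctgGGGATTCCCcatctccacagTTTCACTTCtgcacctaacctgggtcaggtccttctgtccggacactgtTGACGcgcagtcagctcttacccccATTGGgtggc
H2-Q7: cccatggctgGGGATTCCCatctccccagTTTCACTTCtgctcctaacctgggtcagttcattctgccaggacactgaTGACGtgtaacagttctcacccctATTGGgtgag
H2-M3: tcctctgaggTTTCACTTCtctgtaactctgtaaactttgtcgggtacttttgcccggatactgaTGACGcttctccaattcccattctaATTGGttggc
B2m: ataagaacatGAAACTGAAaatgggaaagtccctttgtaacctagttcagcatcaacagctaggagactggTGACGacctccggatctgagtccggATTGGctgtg
H2-D1: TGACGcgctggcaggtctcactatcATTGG

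The X2 and Y letters were searched on both strands with 18 to 22 bases between them. They stood in the promoters of these 5 members, which were picked for display because they share the elements. The other members with an entry, H2-T23, Tapbp and Tap1, did not hold the pair. It was found in 0.268% of the 32851 promoters of the RefSeq table. Each of these promoters runs from 250 bases before to 50 bases after a gene's start. GGGATTCCC was found in H2-K1, H2-D1 and H2-Q7 and in 0.353% of all promoters. TTTCACTTC was found in those 3 and H2-M3 and in 0.505% of all, and TTCNNTTTC in B2m and H2-T23 and in 8.56%. These 3 sets of letters were chosen after the sequences had been seen. The promoters of H2-T23 and Tapbp held CCAAT, the opposite strand of the Y letters, and that of Tap1 held CCAAT and TGACG, all without the pair. CCAAT alone was in 37.4% and TGACG alone in 20.8% of all promoters, on either strand. Tap2 and Nlrc5 had no entry in the table.

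Libraries held between 189340 and 4690213 reads on genes, with a median of 1633638. EpCAM transcripts were found in every library, at 334 to 1560.4 CPM, and Siglecf at 25.9 to 2072 CPM. Ptprc, which encodes CD45, ranged from 2.25 to 328 CPM. The summed level of 16 tuft cell markers, Dclk1, Trpm5 and Pou2f3 among them, also varied widely between libraries. At 9 weeks it ranged from 4246 to 28495 CPM on RFD (median 17800) and from 390.0 to 27163 CPM on HFD (median 7511). At 22 weeks the ranges were 4289 to 26955 CPM on RFD (median 19603) and 1178 to 26774 CPM on HFD (median 14968). Libraries with less than 5000 CPM of these markers numbered 3 on RFD and 5 on HFD at 9 weeks and 1 of each diet at 22 weeks, so results are given with and without these 10 libraries. T cell markers were sparse, and 9 of the 18 in the list passed the filter. Their summed level had a median of 42.8 CPM on RFD (6.51 to 91.1) and 4.54 CPM on HFD (0.421 to 93.7) at 9 weeks. At 22 weeks it was 23.6 CPM (2.80 to 146) and 8.93 CPM (2.52 to 96.8), respectively. Of the 18 markers, Trac had no read on RFD at 9 weeks and Xcl1 none on HFD at 22 weeks. Cd3e, Cd8a, Gzma and Gzmb had reads in every group, but not in every library. At 9 weeks they had 0 reads in 7, 5, 3 and 5 of 11 RFD libraries, respectively. On HFD it was 8, 6, 8 and 10 of 11.

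HFD and RFD were compared at each time to learn whether the diet was accompanied by different levels of the class I genes. At 9 weeks, H2-K1, H2-Q7 and H2-T23 were lower on HFD, by 2.30-fold, 4.75-fold and 2.13-fold in mean CPM. At 22 weeks, B2m, H2-K1, H2-D1, H2-Q7 and Tap1 were lower on HFD, by 2.14-fold, 2.45-fold, 2.09-fold, 5.41-fold and 1.99-fold. The call rests on an adjusted p under 0.1 in the quasi-likelihood test of edgeR, with the p-values of all 14020 genes adjusted by the method of Benjamini and Hochberg. So 3 of 10 members were called lower at 9 weeks, where 1.33% of all genes were, and 5 of 10 at 22 weeks, where 0.357% were. No member was called higher at either time, whereas 2% and 0.435% of all genes were. At an unadjusted p under 0.05, 7 of 10 members were lower at each time, beside 8.27% and 5.61% of all genes, and 0 were higher, beside 9.73% and 4.69%. In no member was every HFD library below every RFD library, which 0% and 0.00713% of all genes showed. Counts of single libraries beyond the range of the other diet are given below as description only. Their shares over all genes were not worked out. The fitted log2 fold change was below 0 for 10 of 10 members at both times, against 52.7% and 52.1% of all genes. The median over the members was -0.99 at 9 weeks and -1.05 at 22 weeks, beside -0.05 and -0.03 over all genes tested. In bulk libraries, fewer cells of a type and less RNA per cell cannot be told apart.

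In the diet comparisons, fits with the tuft or T cell marker level as a covariate called fewer members. With the mean tuft marker level, 0 of 10 members were called at 9 weeks, where 19 of all genes were in place of 466, and 4 of 10 at 22 weeks, where 158 were in place of 111. The 9-week log2 differences in this fit were -0.62 for H2-K1, -1.72 for H2-Q7 and -0.48 for H2-T23. With the T cell marker level instead, 1 and 3 members and 14 and 38 of all genes were called at 9 and 22 weeks. The 9-week log2 differences were then -1.348 for H2-K1, -2.43 for H2-Q7 and -1.22 for H2-T23, no smaller than without the covariate. For the members called at 22 weeks the differences were smaller with it. They were -0.91 for B2m, -1.12 for H2-K1, -0.91 for H2-D1, -2.11 for H2-Q7 and -0.88 for Tap1. Without it they were -1.12, -1.33, -1.11, -2.49 and -1.03, respectively. Without the 10 libraries low in tuft markers, 2 and 6 members and 112 and 343 of all genes were called.

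**Figure D1:**
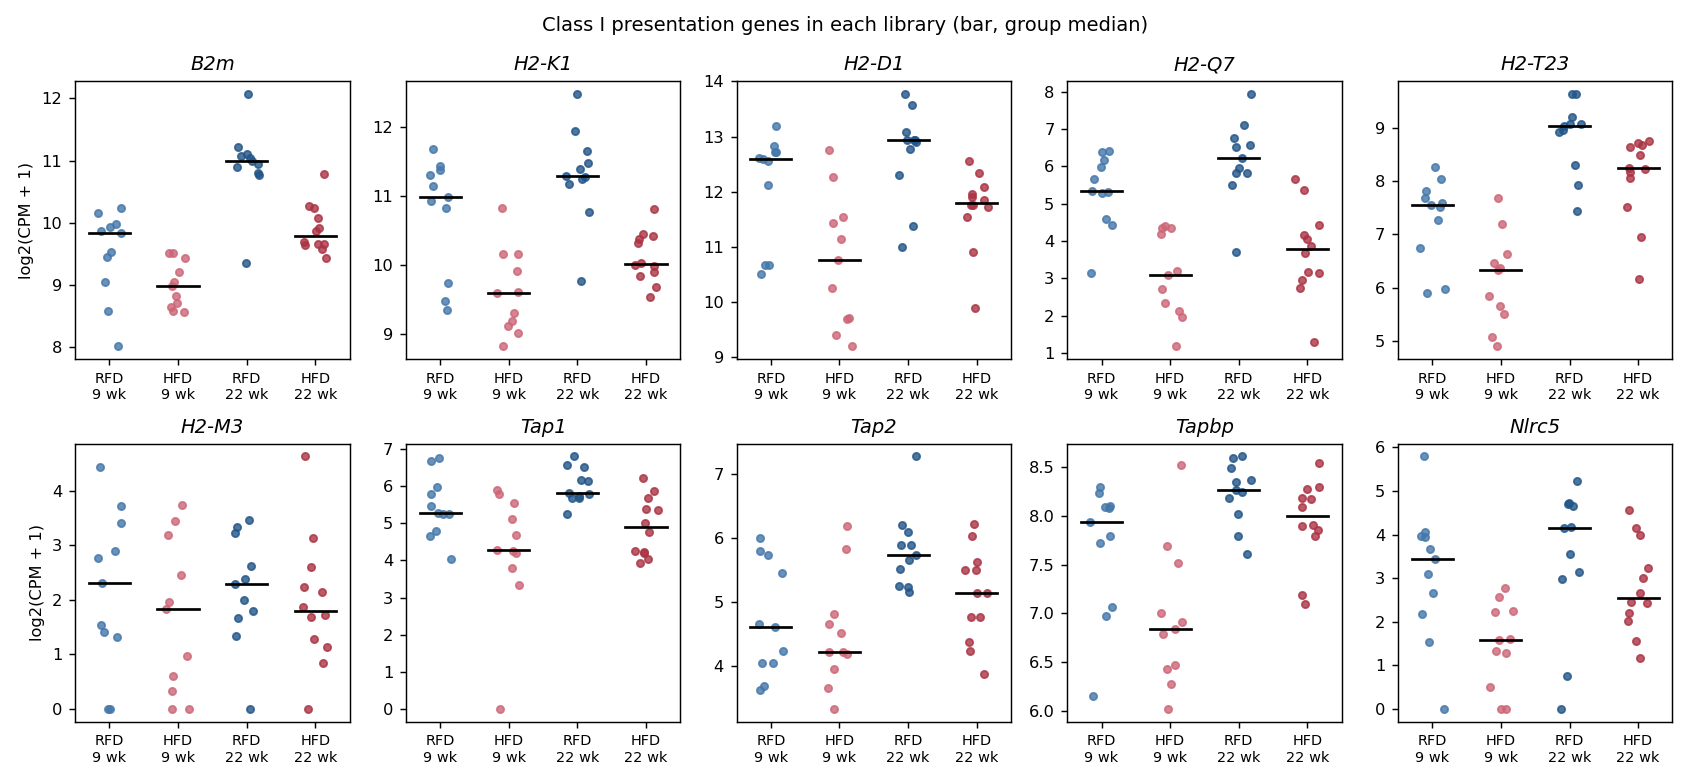
Each point is 1 library, and its height is log2(CPM + 1) of the gene named above the panel. The 4 columns are RFD and HFD at 9 weeks (n = 11 each) and RFD (n = 11) and HFD (n = 12) at 22 weeks, bars are group medians, and each panel has its own axis. In H2-Q7 at both times all HFD libraries lie below the RFD median, while in H2-M3 the groups overlap throughout.

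**Figure D2:**
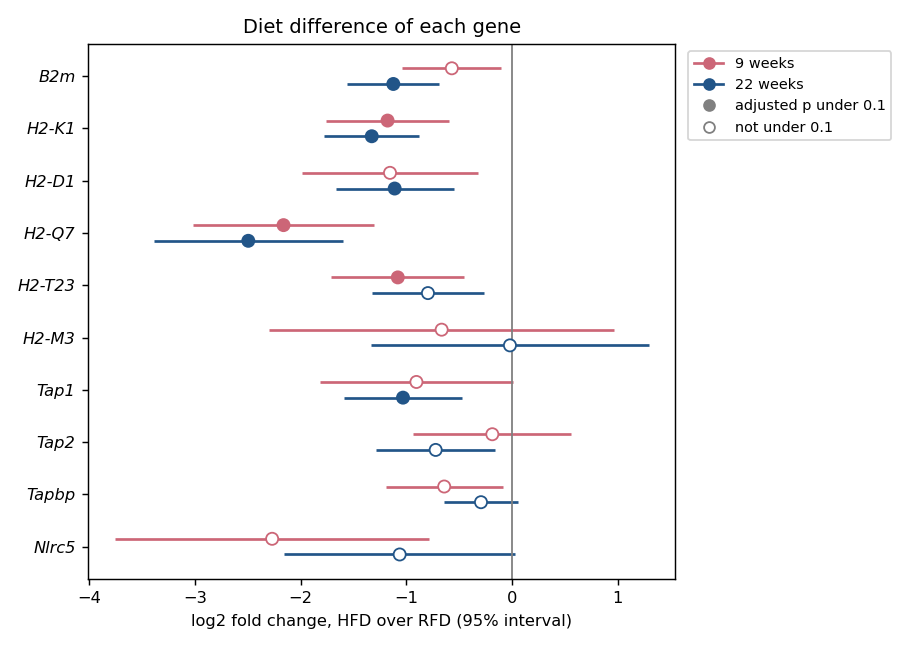
Points are fitted log2 fold changes of HFD over RFD at 9 weeks (red) and 22 weeks (blue), lines are 95% intervals, and filled points have an adjusted p under 0.1. All 20 points lie below 0, with H2-Q7 and Nlrc5 at 9 weeks and H2-Q7 at 22 weeks below -2.

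B2m is a single gene on chromosome 2 (122147686 to 122153083 on GRCm38, the build of all gene positions given here). On RFD at 9 weeks it ranged from 257 to 1203 CPM with a median of 909.9, and on HFD from 376 to 733 CPM with a median of 503. The ranges overlapped, but 11 of 11 HFD libraries were below the RFD median, as was the case for 3.11% of all genes. The log2 fold change was -0.57 (95% interval -1.04 to -0.10, adjusted p = 0.183), which did not pass the test. At 22 weeks B2m ranged from 652 to 4315 CPM on RFD (median 2044.5) and from 686 to 1760 CPM on HFD (median 879). Here 12 of 12 HFD libraries were below the RFD median (1.9% of all genes), and 9 of 11 RFD libraries were above every HFD library. HFD minus RFD was -1.12 on the log2 scale, with an SE of 0.21 and an adjusted p of 0.00823.

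H2-K1 (chromosome 17, 33996017 to 34000347) ranged from 653 to 3278 CPM in the 9-week RFD libraries (median 2026) and from 452 to 1805 CPM in the HFD libraries (median 774). All 11 HFD libraries were below the RFD median, and HFD minus RFD was -1.18 on the log2 scale, with an SE of 0.28 and an adjusted p of 0.0525. At 22 weeks it ranged from 874 to 5703 CPM on RFD (median 2506) and from 745 to 1798 CPM on HFD (median 1035), and 9 of 11 RFD libraries were above every HFD library. HFD minus RFD was -1.33 on the log2 scale, with an SE of 0.22 and an adjusted p of 0.00255. H2-K1 was thus called at both times.

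H2-D1 (chromosome 17, 35262730 to 35267499) had the highest level of the heavy chains on the TPM scale, which corrects for transcript length. At 9 weeks it ranged from 1463 to 9330 CPM on RFD (median 6169) and from 587 to 6881 CPM on HFD (median 1730). One HFD library lay above the RFD median, and the log2 fold change of -1.15 (SE 0.41) had an adjusted p of 0.137. At 22 weeks the ranges were 2057 to 14045 CPM on RFD (median 7810.1) and 949 to 6005 CPM on HFD (median 3578), with 12 of 12 HFD libraries below the RFD median. HFD minus RFD was -1.11 on the log2 scale, with an SE of 0.27 and an adjusted p of 0.0614. Its SE was smaller at 22 weeks, and the 2 fold changes were close.

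H2-Q7 (chromosome 17, 35439155 to 35443773) had the largest fitted difference of the called members at both times. It ranged from 7.92 to 84.4 CPM in the 9-week RFD libraries (median 39.2) and from 1.26 to 20.3 CPM in the HFD libraries (median 7.45), and 10 of 11 RFD libraries were above every HFD library. HFD minus RFD was -2.16 on the log2 scale, with an SE of 0.42 and an adjusted p of 0.0159. At 22 weeks it ranged from 12.05 to 246 CPM on RFD (median 74.3) and from 1.44 to 49.3 CPM on HFD (median 12.8), with a difference of -2.49 on the log2 scale (SE 0.44 and adjusted p = 0.00597). All 11 and all 12 HFD libraries were below the RFD median at the respective times.

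H2-T23 (chromosome 17, 36029773 to 36032855) was called at 9 weeks and not at 22 weeks, and the difference between the times did not pass the test (log2 0.35, 95% interval -0.48 to 1.17, p = 0.406 in the edgeR interaction fit). At 9 weeks it ranged from 58.9 to 307 CPM on RFD (median 187) and from 28.9 to 205 CPM on HFD (median 80.1), with a difference of -1.08 on the log2 scale (SE 0.31 and adjusted p = 0.0757). At 22 weeks the values were 174 to 796 CPM on RFD (median 521) and 71.1 to 431 CPM on HFD (median 301). All 12 HFD libraries were below the RFD median, and HFD minus RFD was -0.80 on the log2 scale, with an SE of 0.26 and an adjusted p of 0.229.

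H2-M3 (chromosome 17, 37270220 to 37274484) was close to the limit of these libraries, with at most 54 reads in any of them and a read in 39 of 45. Median levels were 3.96 CPM (RFD) and 2.57 CPM (HFD) at 9 weeks, and 3.92 and 2.48 CPM at 22 weeks. Log2 fold changes of -0.67 (95% interval -2.30 to 0.96) and -0.02 (95% interval -1.33 to 1.29) left a difference in either direction possible. The highest HFD value at 22 weeks, 23.7 CPM, was that of a library which also had 2523 CPM of myeloid markers, where the median of its group was 9.68 CPM. The part of these cells in the value was not tested.

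Tap1 (chromosome 17, 34187553 to 34197225) ranged from 15.6 to 108 CPM in the 9-week RFD libraries (median 37.9) and from 0 to 58.0 CPM in the HFD libraries (median 18.4). Its log2 fold change was -0.91 (95% interval -1.82 to 0.01, adjusted p = 0.281). At 22 weeks it ranged from 36.8 to 111 CPM on RFD (median 55.5) and from 14.3 to 73.1 CPM on HFD (median 28.8). Of 12 HFD libraries, 7 were below every RFD library, and HFD minus RFD was -1.03 on the log2 scale, with an SE of 0.28 and an adjusted p of 0.0978. Tap2 (chromosome 17, 34203527 to 34216321) had 9-week medians of 23.3 CPM (RFD) and 17.6 CPM (HFD), with a log2 fold change of -0.19 (95% interval -0.93 to 0.56). At 22 weeks its medians were 51.9 and 34.2 CPM and its log2 fold change was -0.72 (95% interval -1.29 to -0.16, adjusted p = 0.332). As for Tap1, 7 of 12 HFD libraries were below every RFD library at 22 weeks. Neither log2 fold change of Tap2 passed the test.

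Tapbp (chromosome 17, 33915899 to 33929292) ranged from 70.02 to 315 CPM in the 9-week RFD libraries (median 244) and from 63.8 to 367 CPM in the HFD libraries (median 113). One HFD library was above every RFD library, and the log2 fold change of -0.64 (SE 0.27) had an adjusted p of 0.204. The medians at 22 weeks were 307 and 256 CPM, with a log2 fold change of -0.29 (95% interval -0.64 to 0.05, adjusted p = 0.567).

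Nlrc5 (chromosome 8, 94434356 to 94527272) had few reads, with group medians of 14 and 3 reads on RFD and HFD at 9 weeks and of 23 and 9.5 reads at 22 weeks. At 9 weeks it ranged from 0 to 54.5 CPM on RFD (median 9.89) and from 0 to 5.80 CPM on HFD (median 2.02). All 11 HFD libraries were below the RFD median, and the log2 fold change was -2.27 (95% interval -3.76 to -0.78, adjusted p = 0.107). The highest RFD value rested on 7 reads in the library with the lowest total of the series, without which the log2 fold change was -1.92. At 22 weeks its medians were 16.7 CPM (RFD) and 4.90 CPM (HFD), with a log2 fold change of -1.06 (95% interval -2.16 to 0.03, adjusted p = 0.497).

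The heavy chains were also summed, because reads of near-identical H2 genes were divided among them during counting. Over 22 heavy chain genes with reads, the 9-week sum averaged 7702 CPM (SD 3559.6, n = 11) in RFD and 3472 CPM (SD 2429, n = 11) in HFD libraries. The 22-week sum averaged 11299 CPM (SD 4994, n = 11) and 5396 CPM (SD 1697, n = 12). The means on RFD were 2.22-fold and 2.09-fold those on HFD. H2-D1 and H2-K1 supplied most of this sum, with median shares of 60.5% and 32.04% of the summed TPM on RFD at 9 weeks and 53.1% and 33.4% on HFD. At 22 weeks the shares were 59.2% and 29.4% on RFD and 58.2% and 25.6% on HFD, and those of the diets overlapped.

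Across libraries the heavy chain sum followed the tuft markers, as the plot of both sums shows. Per CPM of tuft markers, the heavy chain sum was 0.35 to 0.69 on RFD at 9 weeks (median 0.49) and 0.33 to 3.62 on HFD (median 0.44), so the groups overlapped. The highest of these ratios came from an HFD library with 390.0 CPM of tuft markers. With the libraries under 5000 CPM left out, the ratio at 9 weeks was 0.35 to 0.56 on RFD (median 0.45, n = 8) and 0.33 to 0.44 on HFD (median 0.36, n = 6). At 22 weeks it was 0.52 to 0.87 on RFD (median 0.61, n = 10) and 0.29 to 0.58 on HFD (median 0.38, n = 11). The part of tuft cell number or purity in the diet difference was not tested further than by the covariate above.

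**Figure D3:**
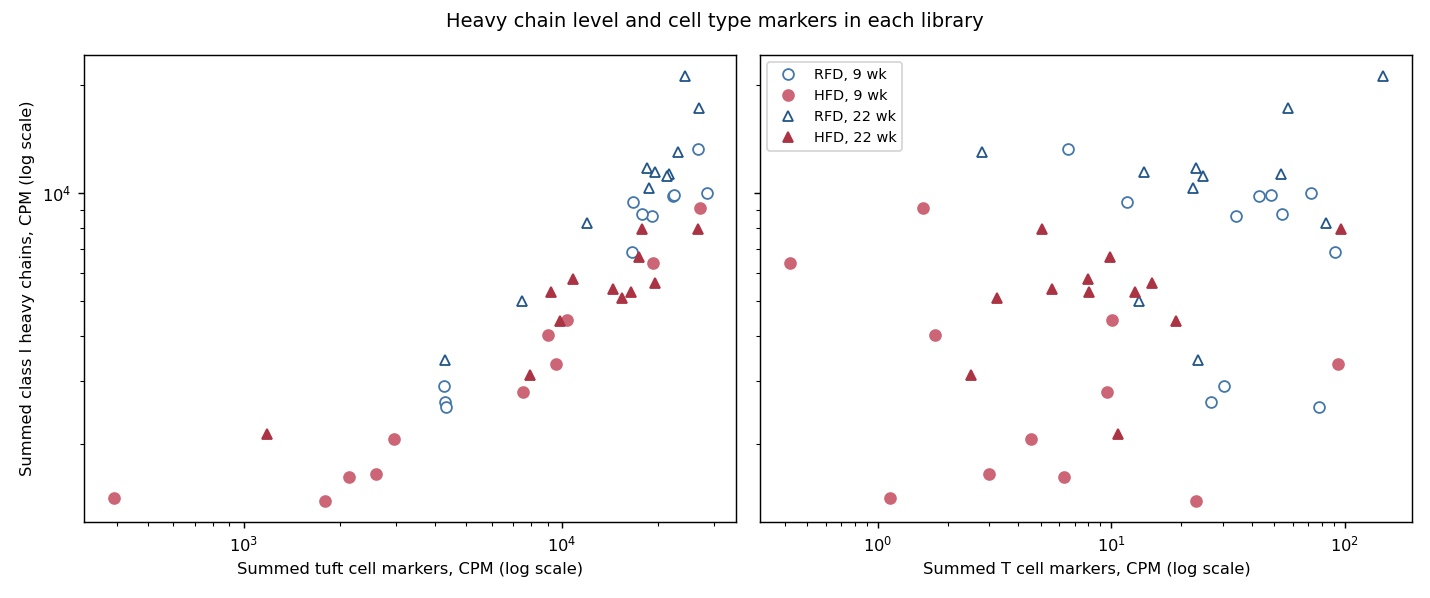
Each point is 1 library, with the summed CPM of 22 class I heavy chain genes on the vertical axis and the summed CPM of 16 tuft cell markers (left) or 18 T cell markers (right) on the horizontal axis, all on log scales. Open symbols are RFD and filled symbols HFD, circles 9 weeks and triangles 22 weeks. On the left the points rise together, and the 22-week HFD libraries above 5000 CPM of tuft markers have ratios of 0.29 to 0.58 against 0.52 to 0.87 on RFD.

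Sharing of sequence was checked on GENCODE M21 transcripts. No window of 100 bases from B2m, H2-M3, Tap1, Tap2, Tapbp or Nlrc5 recurred in a transcript of another gene in the tables. Such windows made up 11.98% of those of H2-Q7, 3.59% of H2-D1, 3.15% of H2-T23 and 0.957% of H2-K1. H2-Q7 shared most with H2-Q10 (5.56%), H2-Q5 and H2-Q6 (3.42%), and H2-D1 with H2-Q1 (3.28%). With windows of 50 bases the shares rose to 26.4%, 12.8%, 13.6% and 9.63%. Counts that were over 0.001 away from a whole number, as arise where reads are divided among genes, were found for H2-D1 in 43 of 45 libraries, for H2-Q7 in 20, for H2-K1 in 9 and for H2-T23 in 5. The values of these 4 genes are uncertain to that extent, whereas B2m had whole counts in all 45. The sum of H2-Q6 and H2-Q7 averaged 70.4 CPM (SD 41.4, n = 11) in RFD and 13.3 CPM (SD 9.17, n = 11) in HFD libraries of 9 weeks. The 22-week averages were 116 CPM (SD 81.3, n = 11) and 23.6 CPM (SD 21.7, n = 12).

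On the TPM scale, where genes can be compared, H2-D1 was first in every group by its median, though its range overlapped that of B2m in each, from 915 TPM on HFD at 9 weeks to 3885 TPM on RFD at 22 weeks. B2m and H2-K1 came next and overlapped, with 1192 and 1302 TPM on RFD at 9 weeks and 3329 and 1727 TPM on RFD at 22 weeks. H2-T23 (34.5 to 379 TPM) and Tapbp (37.0 to 120 TPM) formed the middle of the order and overlapped in the 9-week groups. H2-Q7, Tap1 and Tap2 had medians between 2.74 and 60.5 TPM, and Nlrc5 and H2-M3 were last, with medians of at most 3.42 TPM.

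The mouse numbers fall into 3 series (1 to 8, multiples of 10, and others from 21 to 64), and no label says what the series are. The 9-week RFD library 84 and the 22-week HFD library 65 belong to none and were left out here. At 9 weeks 10, 7 and 9 of 10 members were lower on HFD within the series, as differences of mean log2 CPM without a test, and at 22 weeks 10, 10 and 9. B2m at 9 weeks was -0.94, 0.38 and -0.76 within the series, and at 22 weeks -0.89, -1.65 and -0.80. H2-Q7 was between -1.63 and -2.70 at 9 weeks and between -2.01 and -3.52 at 22 weeks. Among the multiples of 10 at 9 weeks, 3 of 3 RFD and 3 of 4 HFD libraries had less than 5000 CPM of tuft markers. With the series as a term, 4 and 6 members and 456 and 185 of all genes were called at 9 and 22 weeks. The members gained were H2-D1 at 9 weeks (log2 -0.94, adjusted p = 0.0892) and H2-T23 at 22 weeks (log2 -0.84, adjusted p = 0.0502).

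Leaving out single libraries moved the count of called members from 1 to 7 at 9 weeks and from 3 to 6 at 22 weeks. At 9 weeks the count was 1 without RFD library 23 and 7 without HFD library 64, which had 27163 CPM of tuft markers. H2-Q7 was called in 22 of 22 such fits at 9 weeks and H2-Q7, B2m and H2-K1 in 23 of 23 at 22 weeks. H2-K1 was called in 17 of 22 and H2-T23 in 8 of 22 at 9 weeks, H2-D1 in 16 of 23 and Tap1 in 5 of 23 at 22 weeks. At 22 weeks the count was 3 without RFD library 10.

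A diet effect that differed between the sets was tested as an interaction over the 45 libraries with edgeR. It passed for 0 of 10 members and for 0% of all genes (adjusted p under 0.1), and 0 members had an unadjusted p under 0.05, where 1.28% of all genes were lower and 1.94% higher at that threshold. DESeq2 and limma also called 0 members. The smallest unadjusted p were those of B2m (log2 -0.50, 95% interval -1.11 to 0.11, p = 0.109) and Nlrc5 (log2 1.29, 95% interval -0.45 to 3.03, p = 0.143). For no member, then, was the diet difference at one time shown to differ from that at the other.

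Between the sets, 2 of 10 members were higher at 22 than at 9 weeks on RFD, where 0.977% of all genes were, and 3 of 10 on HFD, where 3.47% were. B2m was higher on RFD by log2 1.41 (SE 0.22, adjusted p = 0.000185, edgeR) and on HFD by 0.91 (SE 0.22, adjusted p = 0.00953). H2-T23 was higher by 1.48 (SE 0.30, adjusted p = 0.00428) and 1.83 (SE 0.30, adjusted p = 0.000152). Tapbp was higher on HFD by 0.86 (SE 0.23, adjusted p = 0.0209), and on RFD its difference was 0.45 (adjusted p = 0.494). The tuft marker list had a median difference of 0.16 on RFD and 0.71 on HFD in the same comparisons. That of 10 enterocyte markers was 0.85 with 3 called higher on RFD and 1.14 with 7 called higher on HFD, and its part in the result was not tested.

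Other genes of the pathway were described from lists. Among 11 other class I heavy chains tested, 1 was lower and 0 higher at 9 weeks, and 1 was lower and 1 higher at 22 weeks. H2-Q6, a neighbour of H2-Q7, had a log2 fold change of -2.69 at 9 weeks (SE 0.56, adjusted p = 0.027). H2-T22, a ligand of γδ T cells, had one of -1.55 at 22 weeks (SE 0.39, adjusted p = 0.0643). Within the number series, its differences of mean log2 CPM at 22 weeks were 0.04, -2.35 and -1.20. H2-Q10, which encodes a secreted chain known from liver, was higher on HFD at 22 weeks by log2 1.96 (SE 0.49, adjusted p = 0.0643). Of its HFD libraries 12 of 12 were above the RFD median, a share not worked out over all genes. H2-Q10 shares sequence with H2-Q7, as given above, so reads divided between them may bear on both values. Of windows of 50 bases, 34.5% of H2-T22, 31.8% of H2-Q6 and 18.9% of H2-Q10 recurred in other genes. The values of all 3 are uncertain to that extent. The median of the list was -0.95 and -0.55 at 9 and 22 weeks.

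Of the 4 class I-like partners of B2m tested, Fcgrt, which encodes the neonatal Fc receptor, was higher on HFD at 9 weeks. Its mean was 20.6 CPM (SD 13.9) in RFD and 51.0 CPM (SD 16.2) in HFD libraries, a log2 difference of 1.30 (SE 0.35, adjusted p = 0.0662). At 22 weeks its log2 fold change was 0.89 (adjusted p = 0.233). Among 15 genes of peptide supply and loading, 1 was called, the immunoproteasome subunit Psmb8, whose 9-week mean was 185 CPM (SD 72.5) in RFD and 87.4 CPM (SD 54.9) in HFD libraries (log2 -1.06, SE 0.29, adjusted p = 0.0662). None of the 15 was called at 22 weeks, where 5 had an unadjusted p under 0.05 in each direction, and the list medians were 0.08 and -0.09.

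Among the class I regulators, Irf9, a transducer of interferon signals, was lower at 9 weeks (log2 -1.05, adjusted p = 0.0565), and at 22 weeks edgeR called 0 of 15 (3 lower and 1 higher at an unadjusted p under 0.05). Of 9 interferon receptors and kinases, edgeR called 0 at either time, with 4 lower and 1 higher at an unadjusted p under 0.05 at 9 weeks and 1 lower at 22 weeks. Of 30 interferon-stimulated genes, 8 were lower at 9 weeks and 3 at 22 weeks, where 1.33% and 0.357% of all genes were. None was higher, and the list medians were -1.24 and -0.89. The 8 were Isg15, Oasl2, Rsad2, Bst2, Igtp, Zbp1, Xaf1 and Parp14, and the 3 were Irf7, Isg15 and Oas1a. Isg15, a ubiquitin-like protein, had log2 fold changes of -1.53 (adjusted p = 0.0715) and -1.36 (adjusted p = 0.092). Of 7 class II genes, the receptors for peptides from outside the cell, 0 were called at either time (0 at an unadjusted p under 0.05), with medians of -0.40 and 0.04.

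**Figure D4:**
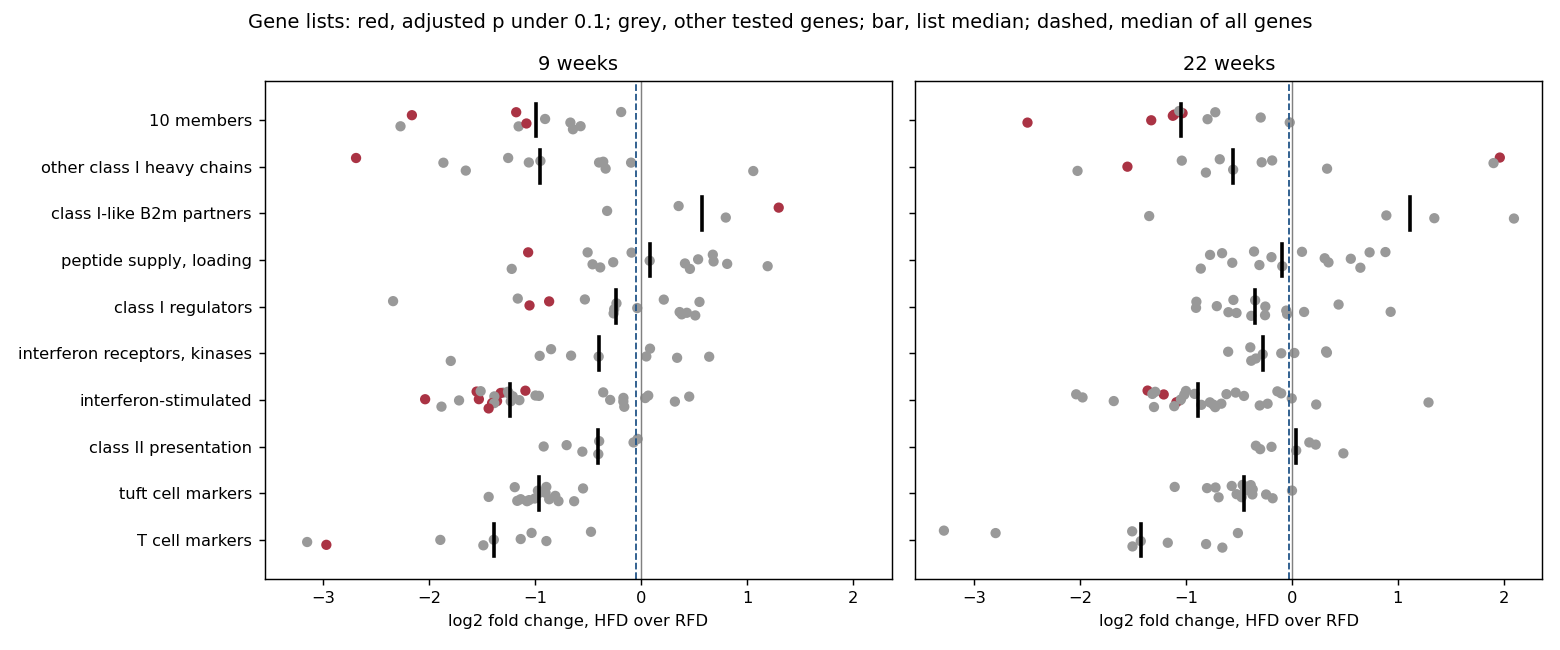
Each point is a tested gene of the list named at the left, placed at its log2 fold change of HFD over RFD at 9 weeks (left) and 22 weeks (right), red where the adjusted p was under 0.1. Black bars are list medians and the dashed line is the median of all 14020 genes. The members (-0.99 and -1.05), the interferon-stimulated genes (-1.24 and -0.89) and the T cell markers (-1.39 and -1.43) have medians well below it. Those of the tuft markers (-0.97 and -0.45) and the other heavy chains (-0.95 and -0.55) are also below it, at 9 weeks near that of the members. Peptide supply and loading (0.08 and -0.09) is close to it.

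Marker lists of tuft and other cells were read beside these genes. The fold change was below 0 for 16 of 16 tuft markers at 9 weeks and 15 of 16 at 22 weeks, with medians of -0.97 and -0.45. Of these markers 0 were called, and 6 and 3 were lower at an unadjusted p under 0.05. At that threshold 8.27% and 5.61% of all genes were lower at 9 and 22 weeks, and 9.73% and 4.69% higher. For T cell markers it was below 0 in 9 of 9 at both times, and Lck was called at 9 weeks. Enteroendocrine markers were below 0 in 7 of 7 at 22 weeks, with a median of -2.96, 2 called and 6 lower at an unadjusted p under 0.05. Paneth cell markers had a median of 2.67 at 9 weeks with 0 of 7 called and 1 higher at an unadjusted p under 0.05. Myeloid markers had a median of 3.09 at 22 weeks with 0 of 9 called and 5 higher at an unadjusted p under 0.05. Their summed level was 2523 CPM in HFD library 31 and 1.33 to 17.4 CPM in the other 11 HFD libraries, and the RFD and HFD medians were both 9.68 CPM. With the myeloid level as a covariate 3 and 5 members were called, beside 260 and 133 of all genes. The part of these cells in the class I differences was not tested beyond these fits.

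H2-K1 was the gene whose level was most like that of B2m among all genes tested, with Pearson's r = 0.861 over the 45 libraries after the mean of each group had been subtracted from log2 CPM. Next came Itm2b (0.753), a membrane protein gene, Golt1a (0.749), a Golgi transport gene, and the interferon-induced genes Ifi27l2b (0.744) and Parp14 (0.724). The other members stood further down the order of all genes tested. H2-D1 was at rank 21 (0.68), H2-Q7 at 28 (0.68), H2-T23 at 66 (0.64), Tapbp at 192 (0.59) and Tap1 at 513 (0.53). Tap2, Nlrc5 and H2-M3 were at ranks 1174, 1650 and 2798 (0.44, 0.39 and 0.29). All points share the depth and cell makeup of their libraries.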

How the data were processed

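The authors trimmed reads with Cutadapt 1.15, aligned them with STAR 2.6.0 and estimated counts per gene with RSEM (GRCm38 in the submitters' notes). The deposited expected counts and TPM values, both made by the authors, were used here, and the deposited FPKM values were not. Of 69 count columns, 24 belonged to no sample and were not used. Counts were rounded, and a gene was tested if over 5 reads were found in 6 or more libraries (14020 genes). Diets were compared within each set with edgeR 4.0.16 (TMM, robust quasi-likelihood test, adjusted p under 0.1). The interaction and the comparisons between sets came from a joint fit of the 4 groups. CPM used TMM factors over the 45 libraries, and log2 CPM a prior count of 2. Depth limits low genes: where a library had at most 3 reads, its value is close to the floor. Each library came from 1 mouse, and p-values measure the spread between mice. By the paper, 4 mice shared a cage, and 1 cage of each group was taken per day over 3 days. The tests took mice as independent, and cage and day were not in the fits. The authors weighted counts by estimated cell proportions and used SAM-seq, and neither was repeated, but a SAM-seq style rank test (20 resamplings, 100 permutations), DESeq2 1.42.0, limma 3.58.1 on log2 TPM and further settings served as alternatives. The tests were checked on simulated data. Named were all members, each gene of the pathway lists called at either time, and the 5 genes most like B2m. One gene of these lists is not reported here. The members and lists were chosen with earlier results of these data known. Mouse numbers recur between the sets but mark different mice: of 16 same-numbered pairs, 2 had a correlation of deviations over 0.1.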

Additional observations from a re-analysis of the deposited data

How the results depend on the processing

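No paired analysis was possible between the diets because RFD and HFD mice of a set share no number. In the time comparisons, numbers recur but do not pair mice, and 1 of 16 libraries correlated best with its own number. A fit with the replicate number as a block called 0 members on RFD, 1 on HFD and 0 for the interaction (14, 5 and 0 genes in all). Its blocks join different mice, so this fit cannot show how firm the time differences are. Members called at 9 weeks (3) became 0 with the tuft marker covariate and with limma on log2(TPM + 1) or log2(TPM + 0.1). They became 1 with the T cell marker covariate, 6 with DESeq2 and 5 with the rank test. All genes called in these fits were 19, 9, 5, 14, 1534 and 1772, in this order, in place of 466. At 22 weeks (5) the members called became 3 with the T cell marker covariate and with both limma settings. All genes called there were 38, 51 and 31, in place of 111. Between the sets, the count on RFD (2) became 4 with the tuft marker covariate and 6 with the rank test. All genes called there were 530 and 921, in place of 204. On HFD (3) the count became 5 with limma on log2(TPM + 1) and 6 with the rank test. All genes called were then 1554 and 2691, in place of 810. The cause was not tested. Leaving out 1 library at a time gave 1 to 7 members at 9 weeks, 3 to 6 at 22 weeks and, between the sets on HFD, 3 to 5. Signs turned in Tap2 at 9 weeks (0.077 with the number series as a term, 0.44 with the tuft marker covariate, 0.0012 without the libraries low in tuft markers, rank statistic 0.40) and in H2-M3 at 22 weeks (0.0057 with DESeq2's size factors, 0.0078 without the filter, 0.32 with the T cell marker covariate, 0.0051 with DESeq2, 0.033 without the libraries low in tuft markers, and -0.73 to 0.19 leaving out single libraries). The other 8 members kept their sign in both diet comparisons under all settings. All genes called, 466 at 9 weeks and 111 at 22 weeks, ranged from 5 (limma) to 1772 (rank test) and from 31 to 622. The summed heavy chain level (log2 -1.15 and -1.07) was -1.12 and -0.96 as TPM and -1.16 and -1.07 without the 2 libraries under 600000 reads. The myeloid covariate, the settings on mitochondrial share and on libraries low in tuft markers, and edgeR without robust estimation were chosen after seeing the data. With limma on log2(TPM + 0.1) the median of all genes moved to -0.11 at 9 weeks. Depth limits H2-M3 and Nlrc5 most.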
